A study of Mus musculus with 18 samples.

Results

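The comparison described here set 8 thymic lymphomas against the thymus of 5 mice of the same genotype that had not yet transformed, and it used 13 of the 18 arrays of the series. Both groups carried CD4Cre-ctnnbex3: Cre recombinase driven by Cd4 regulatory sequences acted on a Ctnnb1 allele whose exon 3 can be removed. The before group was thymus_CD4Cre-ctnnbex3 mice 1 to 5, sampled before T-cell transformation, and the lymphoma group was thymus_lymphoma mice 1 to 8. A further 5 arrays of control thymus, named as LckCre mice in the design text and as wild type in the sample labels, enter below only as a reference level. Total thymocytes or tumour masses were collected, 1 mouse per array, and the design text calls the mice independent. Ages, strains and the time from sampling to transformation are not given in the labels, and the lymphomas came from other animals than those sampled before transformation.

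Beta-catenin, the product of Ctnnb1, is the transcriptional partner of the TCF and LEF factors in Wnt signalling, and exon 3 encodes the residues whose phosphorylation sends the protein to degradation. Thymocytes pass from a CD4- CD8- double-negative stage, in which Notch1 signals and the pre-T-cell receptor are used, to a CD4+ CD8+ double-positive stage marked by Rag1, Rag2 and Dntt, and are then selected on their T-cell receptor. Myc, a transcription factor that pairs with Max, is known for raising the production of ribosomes, nucleotides and polyamines in dividing cells and is a frequent oncogene of T-cell lymphoma.

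Values are array signals on a linear scale, floored at 53.5, and differences are lymphoma minus before on the log2 scale with their standard errors. A gene rose or fell where limma's p, adjusted over the 14019 genes tested, was under 0.05. By that rule 4816 genes (34.4%) changed, 2244 of them higher (16.0%) and 2572 lower (18.3%) in lymphoma. At least 1 on the log2 scale was reached by 553 of those higher (3.94% of all genes tested) and 652 of those lower (4.65%). The median difference over all genes tested was -0.03. The count was 4298 without before mouse 3, 4370 without lymphoma 4, and between 3753 and 5184 when any 1 mouse was left out. Array medians overlapped, at 136.4 to 165.9 before transformation and 125.3 to 158.7 in lymphomas. The added control RNAs of the array did not overlap, however: their mean log2 signal was 10.74 to 11.24 before transformation and 9.95 to 10.68 in lymphomas. Centring on these control RNAs adds 0.52 to every difference and moves the median of all genes to 0.49, so that 6853 genes were higher and 549 lower. Centring on array medians gave 2680 higher and 1899 lower (58.5% higher), and quantile normalization 3177 and 2219 (58.9% higher), against 46.6% higher in the values as deposited. Sex was unequal as well. Xist and Eif2s3y signals were those of males in lymphoma 3 and in every mouse of the before group, those of females in 6 lymphomas, and lymphoma 4 carried both, at 1110 for Xist and 312.7 for Eif2s3y. With sex as a term and lymphoma 4 left out, lymphoma 3 was the only male lymphoma and alone carried the group difference. Sex and group are thus nearly confounded, and that fit cannot separate them, so its counts are not given. Mice numbered 1 and 2 in both groups shared values that separated them from higher numbers in part of the genes. Within mice 1 and 2 alone 1397 genes rose and 1175 fell.

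Both tissues carried the RNA of T cells, at a lower level in the lymphomas. Of 12 T-cell markers tested, 11 fell and none rose, with a median difference of -1.11, and their summed signal was 50000 to 74660 before transformation, 23630 to 36730 in lymphomas and 60360 to 66040 in controls. Cd3e, a signalling chain of the T-cell receptor, read 3827, 2627, 2746, 3371 and 2926 in the 5 mice before transformation and 977, 1295 and 1544 as lowest, median and highest lymphoma. The groups did not overlap, and the difference was -1.26 ± 0.13 (limma adjusted p = 9.6e-06). In bulk RNA, fewer T cells and less of these transcripts per T cell cannot be told apart. Axin2, a feedback inhibitor that beta-catenin induces, checks the genotype. It read 295 to 331 in controls, 865, 740.0, 1237, 743 and 770.4 before transformation, and 1130, 1636 and 2208 in lymphomas. Every lymphoma and every mouse before transformation lay above every control, before mouse 3 lay within the lymphoma range, and the rise was 0.88 ± 0.18 (limma adjusted p = 0.00195). The probe set used for Ctnnb1 itself did not separate the groups, at 3826 to 4799 before transformation and 3181 to 6133 in lymphomas, with a difference of -0.06 ± 0.14 (limma adjusted p = 0.775).

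The largest rises were of genes at or near the floor before transformation. A gene was tested only with a signal above 108.6 on at least 5 of the 18 arrays. A gene at the floor before transformation and in controls could therefore pass only through its lymphomas. The largest rises and falls were also picked among genes without overlap, so lack of overlap is no added support for them. Stra6, the cell-surface receptor for the retinol-binding protein, was at the floor in each of the 5 mice before transformation and read 405, 1039 and 1662 as lowest, median and highest lymphoma. It was at least 18-fold higher (limma adjusted p = 4e-07), and no lymphoma came near the floor. Pou2af1, the B-lymphocyte co-activator of the octamer-binding factors, read 82.1, 53.5, 541, 76 and 75.2 before transformation and 548, 2386 and 4365 in lymphomas. The lowest lymphoma and before mouse 3 were nearly level, and the other 4 mice before transformation lay close to controls, which read 72.3 to 119. The difference was 4.28 ± 0.56, or 19.4-fold (limma adjusted p = 6.41e-05). Spock2, an extracellular matrix proteoglycan, showed the same mouse between the groups: it read 144, 124, 792, 158 and 73 before transformation and 1350, 2253 and 3452 in lymphomas, a 12.8-fold rise.

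Other large rises were uniform over the 5 mice before transformation. Ak5, an adenylate kinase, read 90, 54.6, 97.1, 60.7 and 53.5 against 619, 899.5 and 1654, a difference of 3.79 ± 0.22 (limma adjusted p = 1.38e-07). Esx1, a homeobox gene whose known expression is in placenta and testis, was at the floor in all 5 and read 265, 807 and 1688 in lymphomas, at least 13.5-fold higher. Ryk, a receptor for Wnt ligands, reached 58.2 in 1 mouse before transformation, was at the floor in the other 4, and read 319.6, 437 and 677 in lymphomas, at least 8.5-fold higher (limma adjusted p = 1.49e-07). Rhob, a small GTPase, rose 12-fold, Igfbp7, a secreted binding protein, 13.2-fold, and Sdc1, a heparan sulphate proteoglycan known from plasma cells and epithelia, 9.35-fold. A second probe set for Igfbp7 did not pass. Efhd1 and Tesc, both calcium-binding proteins, were at the floor in all 5 mice before transformation. Tesc differed from the rest in the controls, where it read 288 to 591, about as in lymphomas at 112, 473 and 976.

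Arl2bp, which binds the small GTPase Arl2, split the group before transformation. It read 623 and 633 in mice 1 and 2 and 72.9, 79.7 and 71.2 in mice 3 to 5, while lymphomas read 1086 to 1763 and controls 864 to 1351. The difference was 1.39 within mice 1 and 2 and 4.12 within mice of higher number, against 2.98 ± 0.51 over all (limma adjusted p = 0.000561).

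Among the largest falls, some genes were at the floor in part of the lymphomas and others stayed measurable in all. Ptprf, a receptor tyrosine phosphatase, read 2633, 1572, 2246, 2906 and 2704 before transformation and 53.5, 146 and 793 in lymphomas, of which 3 were at the floor. The groups did not overlap, and the difference was -4.04 ± 0.57 (limma adjusted p = 0.000118). Arpp21, a phosphoprotein enriched in double-positive thymocytes, read 1086, 1396, 1058, 1299 and 1210 against 53.5, 71.4 and 454. Lymphoma 7 alone held the highest of these values, and controls were higher than either group at 3500 to 4270. Nebl, an actin-binding protein of the nebulin family, read 5199, 4578, 3109, 4744 and 4470 against 53.5, 458 and 1251, and fell by 3.62 on the log2 scale. F13a1, a transglutaminase subunit, fell by 3.58, and Hsd11b1, which regenerates active glucocorticoid, fell by 3.37; neither was at the floor in any lymphoma.

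Cecr2, a chromatin remodelling factor, and Slc1a4, a transporter of neutral amino acids, moved away from control before transformation and back part of the way in lymphoma. Cecr2 read 6616, 6385, 4230, 6475 and 5652 before transformation, 336, 813 and 1362 in lymphomas and 105 to 149.7 in controls. Slc1a4 read 1979, 2080, 1081, 1292 and 1559 before transformation, 85.8, 249 and 509.9 in lymphomas, and was at the floor in all 5 controls. Both falls passed without overlap, at -2.88 ± 0.27 (limma adjusted p = 5.63e-06) and -2.87 ± 0.39 (limma adjusted p = 8.65e-05). Cd44, an adhesion receptor, had the same order of groups, at 2433 to 4754, 467 to 2512 and 219.6 to 360.4, but before mouse 3 lay inside the lymphoma range.

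**Figure D1:**
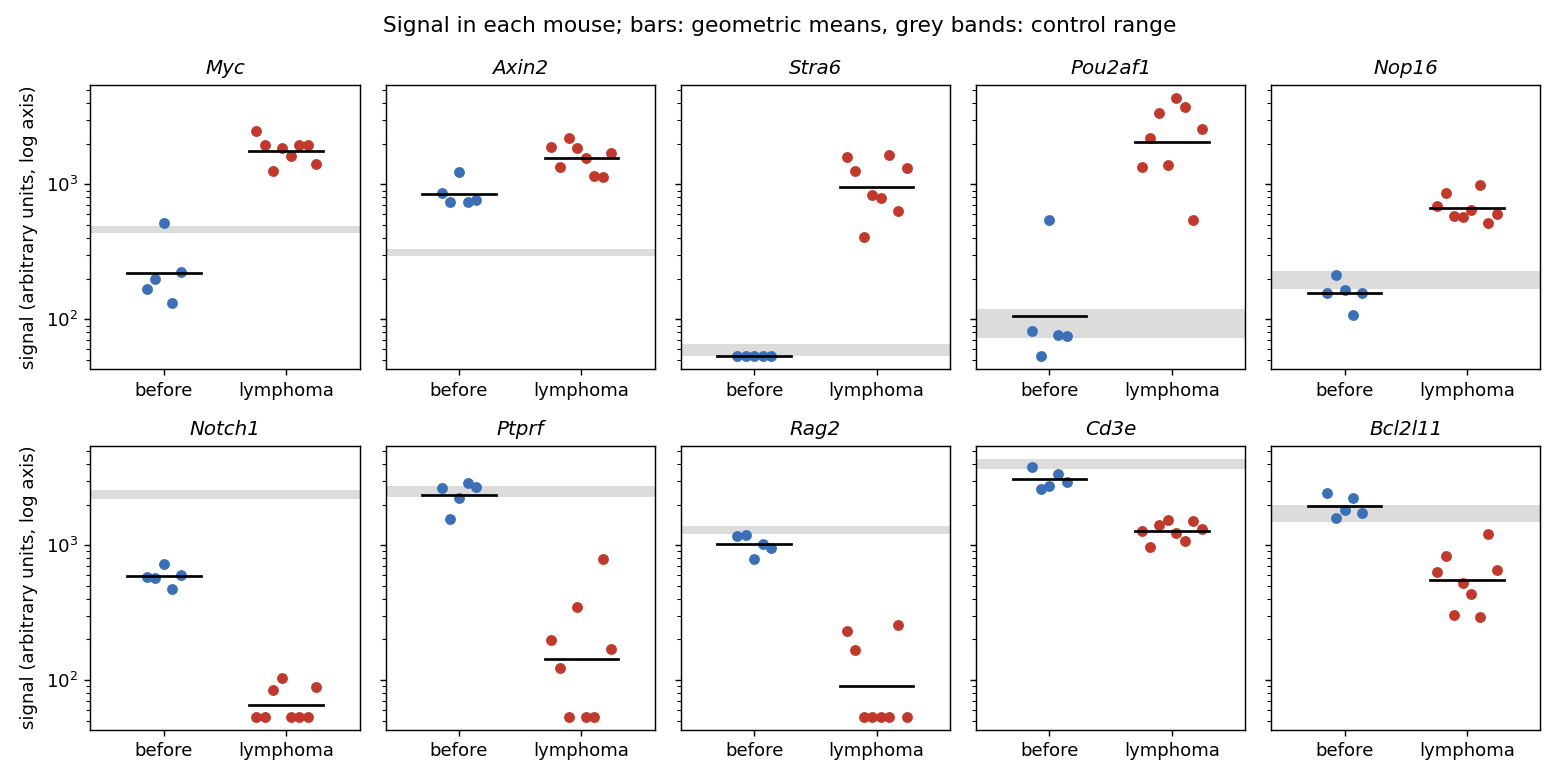
Array signal of 10 genes in each mouse (log axis; floor at 53.5), for the 5 mice before transformation and the 8 lymphomas; each point is 1 mouse, bars are geometric means and the grey band is the range of the 5 controls. Myc, Axin2, Stra6, Pou2af1 and Nop16 were higher and Notch1, Ptprf, Rag2, Cd3e and Bcl2l11 lower in lymphomas; of these 10 only Axin2 overlapped between the groups.

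Myc was among the 20 largest rises. It read 168, 199, 517, 132 and 223 before transformation and 1250, 1906 and 2489 as lowest, median and highest lymphoma. All lymphomas lay above all mice before transformation and above the controls, which read 437 to 488 and so lay above 4 of the 5 mice before transformation. The rise was 3.02 ± 0.26, or 8.11-fold (limma adjusted p = 2.59e-06), 3.60 within mice 1 and 2 and 2.74 within higher numbers. Max, its partner, rose by 0.68 ± 0.13, from 431 to 621 before transformation to 643 to 1021 in lymphomas (limma adjusted p = 0.00108). Of the 12 genes of the Myc network tested 2 rose and 2 fell, or 16.7% each, near the shares of all genes (16.0% and 18.3%). Mlx, a relative of Max, and Mxd4, which competes with Myc for Max, fell by 0.40 and 0.68, with limma adjusted p of 0.0485 and 0.0452. Mlx lost its call in 17 and Mxd4 in 16 of 31 alternatives, Mxd4 turned to 0.21 in another, within mice 1 and 2, and no member of the network fell with quantile normalization, with either centring or without lymphoma 4. Mycn differed by 0.09 ± 0.12 and Mycl by -0.17 ± 0.17, and neither passed.

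The genes of ribosome production rose as a group. Of 53 genes of RNA polymerase I and nucleolar ribosome assembly tested, 44 (83.0%) were higher and 1 lower, against 16.0% and 18.3% of all genes, and their median difference was 0.93. In 36 of them no lymphoma overlapped any mouse before transformation, where 6.67% of all genes rose without overlap. The median of the list in single lymphomas, relative to the mean before transformation, was 0.75 to 1.30, above the range of -0.20 to 0.24 in single mice before transformation. Nop16, a nucleolar protein of the large-subunit pathway, read 157, 213, 164, 108 and 158 before transformation and 519.7, 626 and 998 in lymphomas. It rose 4.3-fold (limma adjusted p = 2.51e-06), and controls at 168 to 229 resembled the mice before transformation. Rrs1, which assembles the large subunit, rose by 1.30 ± 0.11 and Nop2, an RNA methyltransferase of the nucleolus, by 1.24 ± 0.11. The 1 member that fell was Ubtf, the promoter factor of RNA polymerase I, at -0.33 ± 0.10 (limma adjusted p = 0.022), and its difference turned to 0.20 with spike-in centring and did not pass without before mouse 1. The list median in lymphoma 3, the only lymphoma with male signals alone, was 0.78.

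Genes that charge tRNA, fold proteins and make nucleotides shared the direction. Of 23 aminoacyl-tRNA synthetases 17 rose and none fell (median 0.48), of 18 cytosolic and mitochondrial chaperonins 14 rose and none fell (0.46), and of 25 genes of purine and pyrimidine synthesis 17 rose and 3 fell (0.59). Kars, which charges lysine tRNA, rose by 1.21 ± 0.14, and Vars, which charges valine tRNA, by 1.29 ± 0.17. Cct8, a subunit of the cytosolic chaperonin, rose from 1199 to 2296 before transformation to 2785 to 3835 in lymphomas, by 1.19 ± 0.14. Cad, which starts pyrimidine synthesis, read 309.7, 303, 432, 211 and 259.6 against 859.6, 995 and 1242. No value overlapped, and it rose 3.45-fold (limma adjusted p = 2.25e-06). Atic, which ends purine synthesis, rose 2.92-fold and Nme1, a nucleoside diphosphate kinase, 1.91-fold. Prps2, a source of the phosphoribosyl group, went the other way, from 1310 to 1757 before transformation to 510.4 to 1005, and fell by 1.05 on the log2 scale (limma adjusted p = 0.000181).

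Polyamine genes were split. Odc1 and Srm, which make putrescine and spermidine, rose 2.53-fold and 3.73-fold, and Oaz1, the antizyme that limits ornithine decarboxylase, fell by 0.29 (limma adjusted p = 0.0053), or rose by 0.24 with spike-in centring. The other 4 of 7 members tested did not pass. Of 12 genes of serine, glycine and folate metabolism 5 rose and 1 fell. Mthfd1, of the folate cycle, rose by 1.54 ± 0.14 and Psat1, of serine synthesis, by 1.19 ± 0.16.

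The E-box CACGTG is the site to which Myc and Max are known to bind. The promoters of 4 of these genes are shown because each holds it within the 200 bases before the start site, on RefSeq's GRCm38.p6. The lines read 5′ to 3′ on the gene's strand, with the hexamer in capitals.
Nop2, chr6:125131683-125131882, plus strand, hexamer 60 bases before the start: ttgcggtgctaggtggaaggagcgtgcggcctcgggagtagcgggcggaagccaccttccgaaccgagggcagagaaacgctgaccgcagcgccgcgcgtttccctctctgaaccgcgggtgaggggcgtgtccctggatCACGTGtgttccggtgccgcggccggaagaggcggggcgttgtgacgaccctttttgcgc
Atic, chr1:71556956-71557155, plus strand, hexamer 7 bases before the start: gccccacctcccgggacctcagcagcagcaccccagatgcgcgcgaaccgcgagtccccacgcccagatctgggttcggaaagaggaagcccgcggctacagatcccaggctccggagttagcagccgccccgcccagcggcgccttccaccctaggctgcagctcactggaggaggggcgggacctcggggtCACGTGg
Nme1, chr11:93968273-93968472, minus strand, hexamer 18 bases before the start: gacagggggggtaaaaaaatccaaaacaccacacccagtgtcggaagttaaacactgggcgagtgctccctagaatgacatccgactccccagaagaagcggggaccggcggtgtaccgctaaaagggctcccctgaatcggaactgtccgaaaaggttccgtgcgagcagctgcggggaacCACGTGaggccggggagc
Hspd1, chr1:55088244-55088443, minus strand, hexamer 80 bases before the start: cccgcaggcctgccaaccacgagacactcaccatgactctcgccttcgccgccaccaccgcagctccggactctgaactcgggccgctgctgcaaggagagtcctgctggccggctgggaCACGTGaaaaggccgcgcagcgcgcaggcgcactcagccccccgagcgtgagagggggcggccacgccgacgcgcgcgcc
CACGTG reads the same on both strands. Among genes tested with a promoter in that table, 6.98% of 11247 held it in this window, against 7.18% of the 1770 that rose and 7.55% of the 2092 that fell. It stood in 3 of 46 nucleolar genes, 3 of 15 aminoacyl-tRNA synthetases and 3 of 23 genes of nucleotide synthesis. A match is a description of the letters and not of binding.

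Energy metabolism moved less. Of 19 glycolytic genes 9 rose and 2 fell (median 0.22), and of 28 genes of the pentose phosphate pathway and the TCA cycle 10 rose and 3 fell (0.15). Hk2, the inducible hexokinase, read 144, 108, 171, 103 and 109.7 before transformation and 255, 425 and 505 in lymphomas, while Hk1, the constitutive form, fell from 883 to 1073 down to 572 to 771. Neither gene overlapped between the groups, and the differences were 1.65 ± 0.19 and -0.56 ± 0.10, with limma adjusted p of 2.22e-05 and 0.000631. The difference of Hk1 was -0.03 with spike-in centring, where its call was lost, as it was within mice 1 and 2. Tpi1 and Pgam1, of the lower part of glycolysis, rose 2.96-fold and 2.39-fold, and Tkt, of the pentose phosphate pathway, 2.15-fold. Of 52 subunits of the respiratory chain 6 (11.5%) rose and 4 fell as deposited, where 16.0% of all genes rose. The counts were 20 and 2 with quantile normalization, 41 and 0 with spike-in centring and 13 and 4 with the mouse number as a block.

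The proteins of the ribosome itself depended on the scaling. Of 35 cytosolic ribosomal proteins tested 7 rose and 3 fell as deposited, with a median of 0.03, 14 rose and 0 fell with quantile normalization, and 33 rose and 0 fell with spike-in centring. Rpsa, a protein of the small subunit, rose by 0.36 ± 0.07 and Rps10, of the same subunit, fell by 0.21, or rose by 0.31 with spike-in centring. The larger rises of Rps6 and Rpl14, 3.25-fold and 4.1-fold, were read from dim probe sets, at 130.3 to 429.6 and 53.5 to 160.5 before transformation. Of 28 translation factors 9 rose and 2 fell (0.19). Eif3b, a scaffold of the initiation complex, rose 2.06-fold without overlap, and Eif4g2, which acts in initiation without the cap-binding protein, fell by 0.52. The call of Eif4g2 was shared by 1 of 4 other probe sets. It was lost with spike-in centring (limma adjusted p = 0.999) and within mice 1 and 2. Of 35 proteasome subunits 6 rose and none fell, and of 20 genes of sterol synthesis and uptake 3 rose and 2 fell.

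**Figure D2:**
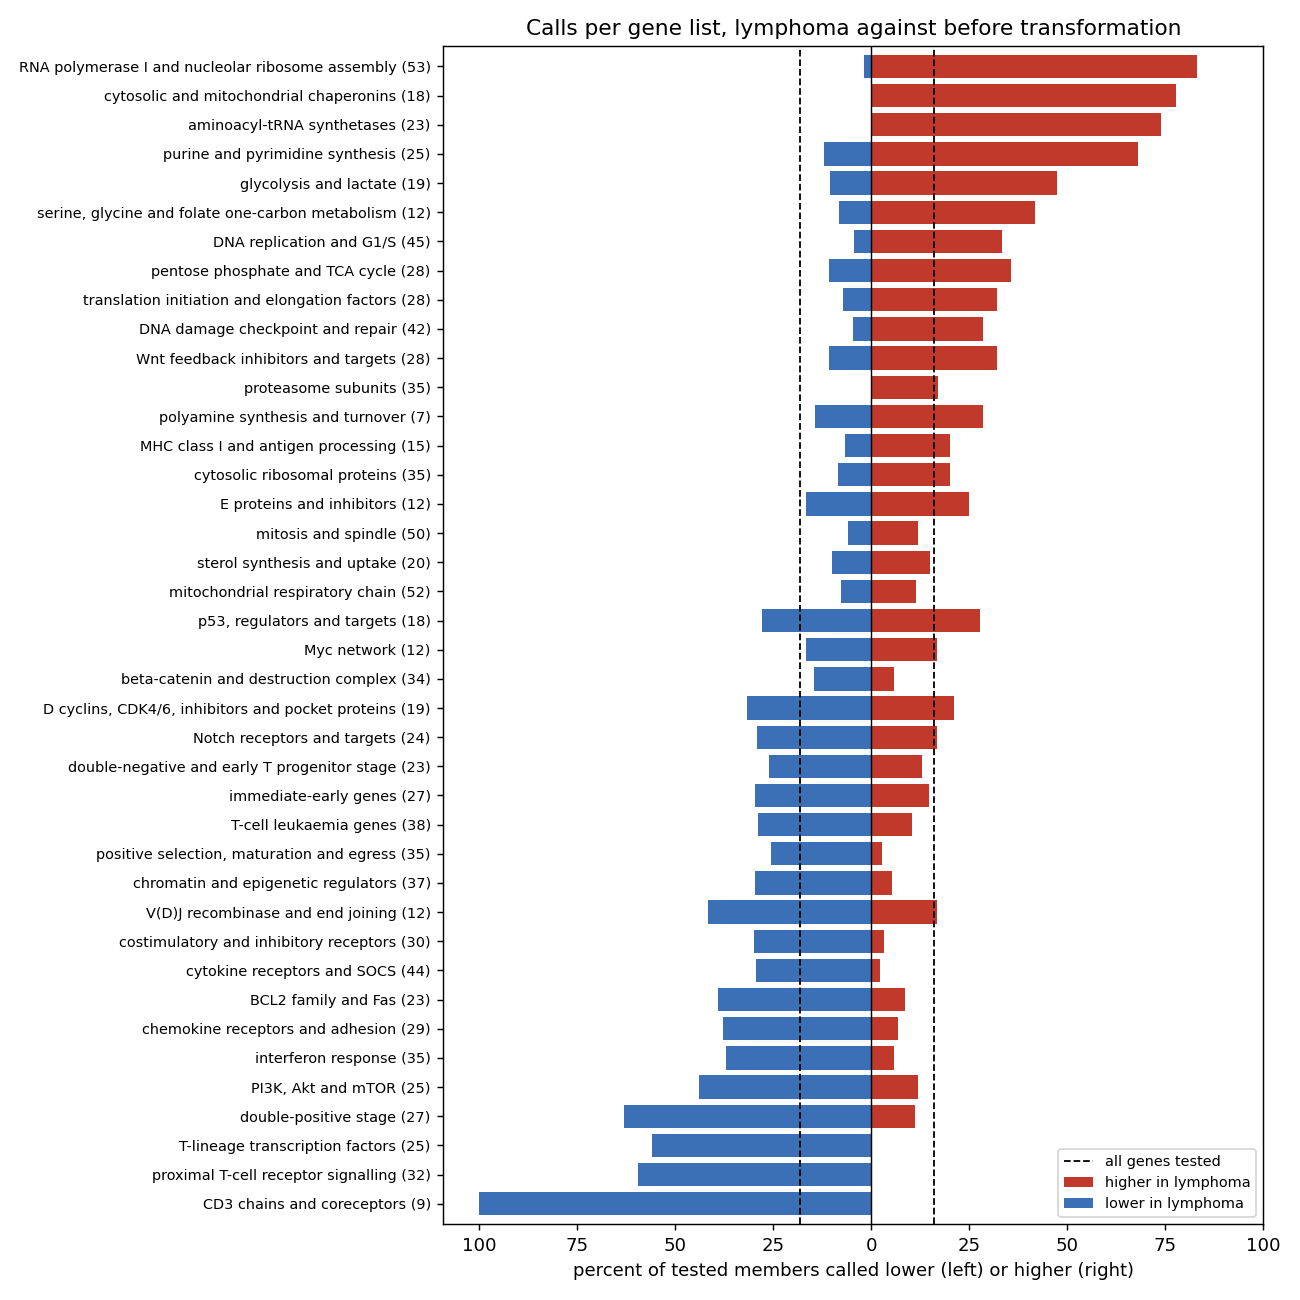
Share of the members tested that were called higher (right) or lower (left) in lymphoma, in percent, for 40 pathway lists; dashed lines give the shares of all genes, 16.0% and 18.3%. Nucleolar genes lie farthest to the right and CD3 chains with coreceptors farthest to the left; with spike-in centring 14 of the 19 lists with more members lower than higher have more higher than lower, and none of the 19 with more higher turns.

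Replication genes rose in part. Of 45 genes of DNA replication and the G1/S step 15 rose and 2 fell (median 0.32), and of 50 genes of mitosis 6 rose and 3 fell (0.13). The mitosis counts were 35 and 0 with spike-in centring, 3 and 2 within mice 1 and 2, and 16 and 1 within mice of higher number. Pold2, a subunit of the replicative polymerase, rose by 0.91 ± 0.13 and E2f3, a G1/S transcription factor, by 0.84 ± 0.12, both without overlap. Fen1, the flap endonuclease, fell by 0.38 in the probe set used, rose in a second one, and differed by 0.14 with spike-in centring. The mitosis list also differed within the group before transformation, where mouse medians ran from -0.42 to 0.60, mice 1 and 2 above mice 3 to 5. Of the mitotic genes Aurkb, a kinase of chromosome segregation, rose by 0.83 ± 0.15 and Cdc25b, a phosphatase that activates mitotic kinase, by 1.15 ± 0.20.

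The D cyclins went apart. Ccnd3, the D cyclin of thymocyte expansion, read 8930, 7184, 6146, 8441 and 8033 before transformation and 604, 2687 and 4602 in lymphomas. It fell by 1.70 on the log2 scale without overlap (limma adjusted p = 0.00254). Ccnd2 read 177, 124, 972, 229.9 and 288 before transformation and 206, 1416 and 2213 in lymphomas, so before mouse 3 lay among the lymphomas and 1 lymphoma among the other mice. Its rise was 1.91 ± 0.56 (limma adjusted p = 0.0172), 3.47 within mice 1 and 2 and 1.10 within higher numbers, and controls read 858 to 1922. Ccnd1 stayed between 87.5 and 261 in all 13 mice, with a difference of 0.40 ± 0.24 that did not pass. The inhibitors Cdkn1b and Cdkn2d fell by 1.14 and 1.13, and the pocket protein Rbl2 by 0.96, all without overlap. Over the 19 genes of this list tested, 4 rose and 6 fell as deposited, and 8 rose and 4 fell with spike-in centring.

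Cdkn1a, an inhibitor that p53 is known to induce, fell outside the rule for named genes and was chosen after its values were seen. It read 228, 298, 155, 108 and 160.3 before transformation and between 257 and 1483 in lymphomas, where 5 stood above 1000 and lymphomas 3, 4 and 7, between 257 and 355, were near the highest mouse before transformation. The rise was 2.10 ± 0.49 (limma adjusted p = 0.00443). Of 18 genes of p53, its regulators and targets 5 rose and 5 fell. Mdm2 and Mdm4, which restrain p53, fell by 0.53 and 0.94, with lymphoma 6 lowest in both, and a second probe set for Mdm4 rose. Both calls were lost with spike-in centring, where Mdm2 differed by -0.01, and that of Mdm4 also as a mean over probe sets. Btg2, an antiproliferative target, fell by 1.23 without overlap. Of 42 genes of damage checkpoints and repair 12 rose and 2 fell (median 0.12). Parp1, a sensor of strand breaks, rose by 0.83 ± 0.10, and Ddb2, which recognises ultraviolet damage, read 391, 415, 455, 540.0 and 444 against 108, 155 and 228 and fell by 1.48.

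Cell death genes fell on both sides of the balance. Bcl2l11, the pro-apoptotic BIM of thymocyte deletion, read 2446, 1599, 1818, 2223 and 1718 before transformation and 292, 576 and 1212 in lymphomas. No value overlapped, and the fall was 1.81 on the log2 scale (limma adjusted p = 0.000346). Bcl2l1, whose long product protects double-positive thymocytes, read 2287, 2065, 1620, 2322 and 2191 against 490.1, 700.3 and 1297. It fell by 1.49 (limma adjusted p = 6.79e-05), also without overlap. Fas, the death receptor, read 1028, 991, 564, 784 and 765 against 53.5, 70.8 and 349.8 and fell by 3.05 (limma adjusted p = 7.02e-05). Bcl2, the protective founder of the family, fell by 0.87 ± 0.30 with overlapping values (limma adjusted p = 0.0374). This call was lost in 14 of 31 alternatives, among them leaving out any 1 mouse of the before group or lymphoma 2 or 5 (differences of -0.91 to -0.79). Bik, a pro-apoptotic member, rose by 0.87 ± 0.17. Over the 23 genes tested 2 rose and 9 fell, and 8 rose and 4 fell with spike-in centring.

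The recombinase of antigen receptor genes fell in every lymphoma. Rag1 read 8542, 6866, 5846, 8680 and 8231 before transformation and 661, 2386 and 3547 as lowest, median and highest lymphoma. The groups did not overlap, lymphoma 3 was lowest, and the fall was 1.79 (limma adjusted p = 0.00061). Rag2 read 1169, 1185, 791, 1027 and 950.2 before transformation, was at the floor in 5 of 8 lymphomas and reached 258 in the highest. It was at least 11.2-fold lower (limma adjusted p = 3.69e-05). Dntt, the terminal transferase, read 9497, 8928, 6406, 9113 and 8704 against 91.8, 770.2 and 3029 and fell by 3.47 (limma adjusted p = 0.000527). Rag1 and Dntt thus stayed measurable in all 8 lymphomas while Rag2 did not. Xrcc5, the Ku80 subunit of end joining, rose 4.69-fold, from 109 to 187 up to 288 to 1080. Over the 12 genes of the list 2 rose and 5 fell, and 5 rose and 3 fell with spike-in centring.

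Genes of the double-positive stage fell broadly. Of 27 tested 17 (63.0%) fell and 3 rose, with a median of -1.21, and 14 fell without overlap, where 8.85% of all genes did so. The direction held with spike-in centring, at 15 lower and 3 higher. Cd8b1, the beta chain of the CD8 coreceptor, read 10170, 9740, 6714, 9549 and 9157 against 3812, 4383 and 5201, with before mouse 3 nearest the lymphomas. Cd8a read 10970, 10120, 6069, 9238 and 8009 against 1188, 3352 and 4878, with lymphoma 3 lowest. They fell by 1.01 and 1.48, with limma adjusted p of 1.26e-05 and 0.00107. Cd1d1, which presents lipids to NKT cells, fell by 1.21. Mns1, a filament protein, was a member that rose, by 1.11 ± 0.32 with overlapping values, though not without before mouse 4. Of 23 genes of the double-negative and early progenitor stage 3 rose and 6 fell (median -0.06), and 9 rose and 3 fell with spike-in centring.

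All 9 genes of CD3 chains, coreceptors and receptor partners tested fell without overlap (median -1.31). Cd3d, Cd3e, Cd3g and Cd247 are also among the T-cell markers above, so the 2 results are not independent. Cd247, the zeta chain, read 2820, 2802, 2166, 3210 and 3132 against 607, 1008 and 1223 and fell by 1.59 (limma adjusted p = 1.88e-05). Cd4 read 7581, 5952, 3911, 6513 and 5517 against 1693, 2492 and 3655. The highest lymphoma was just below before mouse 3, and the fall was 1.21 (limma adjusted p = 0.000131). Ptcra, the pre-T-cell receptor chain, read 129.8, 161, 116, 128 and 131 before transformation, was at the floor in all 8 lymphomas and read 424 to 492 in controls. It was at least 2.47-fold lower than before transformation (limma adjusted p = 4.46e-06).

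Of 32 genes of proximal T-cell receptor signalling 19 fell and none rose (median -0.82), and 10 fell and 3 rose with spike-in centring. Lat, the adaptor downstream of the receptor, read 6771, 6468, 5034, 6641 and 6119 against 2874, 3231 and 3436, a narrow range in lymphomas. The difference was -0.96 ± 0.08 (limma adjusted p = 2.58e-06). Txk, a Tec-family kinase, fell by 2.53 and Prkcq, protein kinase C theta, by 1.63. Zap70, the kinase that binds the zeta chain, fell less, by 0.37, from 2118 to 2511 down to 1554 to 1936, and differed by 0.15 with spike-in centring.

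T-lineage transcription factors fell in 14 of 25 and rose in none (median -0.57), and 7 fell and 6 rose with spike-in centring. Bcl11b, which holds cells in the T lineage, read 6786, 5570, 4520, 6230 and 5153 against 1217, 1842 and 2808 and fell by 1.58 (limma adjusted p = 5.39e-05). Myb, a factor of thymocyte proliferation, fell by 0.98 and Nfatc3, a calcineurin-dependent factor, by 1.41. Satb1, a chromatin organiser of thymocytes, was the most uneven of those given: it read 6874 to 9910 before transformation and 206, 2370 and 5510 in lymphomas, with lymphoma 3 lowest. Gata3, a factor of the CD4 lineage, fell by 0.81 without overlap, a call lost with spike-in centring and within mice 1 and 2. Lef1, the partner of beta-catenin, read 1169 to 1575 before transformation and 1286 to 1679 in lymphomas, and its difference of 0.07 ± 0.10 did not pass. In positive selection, maturation and egress 1 of 35 genes rose and 9 fell (median -0.40), and 7 rose and 3 fell with spike-in centring. Tox, needed for CD4 maturation, fell by 1.58, and Cxcr4, which retains cells in the cortex, by 0.80. The call of Cxcr4 was lost with spike-in centring.

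CAGGTG is a form of the E-box to which the E proteins E2A and HEB are known to bind, and Rag1 is shown because it holds it and its RNA fell. The line reads 5′ to 3′ on the gene's strand, with the hexamer, 135 bases before the start site, in capitals.
Rag1, chr2:101649533-101649732, minus strand: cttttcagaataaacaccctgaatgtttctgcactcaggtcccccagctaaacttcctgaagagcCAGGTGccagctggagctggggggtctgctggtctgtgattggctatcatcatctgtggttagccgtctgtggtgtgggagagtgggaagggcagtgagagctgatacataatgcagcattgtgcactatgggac
On either strand, as CAGGTG or CACCTG, it stood in 12.8% of the 11247 windows of genes tested. It stood in 203 of the 1770 genes that rose and in 271 of the 2092 that fell, the latter near the share of all genes tested. Nkd1 and Il9r, which rose, also held it. By list it stood in 3 of 7 CD3 and coreceptor genes (Cd3d, Cd3g and Cd247). The counts were 7 of 27 for proximal receptor signalling and 3 of 19 for the double-positive list. A part of E proteins in the falls was not tested.

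Among the E proteins themselves and their inhibitors, Tcf12 (HEB) fell from 3211 to 3646 down to 1138 to 2942, a difference of -0.84 ± 0.19, and Tcf3 (E2A) differed by -0.23 ± 0.09, with limma adjusted p of 0.00366 and 0.0471. The call of Tcf3 was lost in 18 of 31 alternatives, and its difference was 0.29 with spike-in centring. That of Tcf12 was also lost with spike-in centring. Lyl1, which pairs with E proteins and is an oncogene of T-cell leukaemia, read 65.1, 75.8, 135, 113 and 78.8 against 142, 162 and 206. It rose by 0.89 ± 0.18 without overlap (limma adjusted p = 0.00157). Its partner Lmo2 read 72.8, 53.5, 278, 69.7 and 67.9 against 119, 203 and 294, so that before mouse 3 lay within the lymphoma range and the other 4 below it. It rose by 1.10 ± 0.35 (limma adjusted p = 0.0249), a call lost when any 1 of before mice 1, 2, 4 and 5 was left out. Id3, an inhibitor of E proteins, read 67.8, 95.1, 464, 135 and 109.9 against 113, 289 and 527, and 1187 to 1301 in controls. The difference of 1.03 ± 0.43 did not pass (limma adjusted p = 0.0773) but passed in 8 of 31 alternatives, among them those without before mouse 3 or lymphoma 1, and that of Id2, at 0.09 ± 0.36, did not pass.

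Notch1 was nearly lost. It read 581, 575, 729, 475 and 602 before transformation, was at the floor in 5 of 8 lymphomas with 103 as the highest, and read 2215 to 2551 in controls. Before transformation it thus stood below every control, and in lymphomas it was at least 8.97-fold lower again (limma adjusted p = 1.55e-07). Fbxw7, the ubiquitin ligase subunit that targets Notch and Myc proteins, fell by 1.51 without overlap, from 859 to 1265 down to 211 to 536, where controls read 527 to 588. Hes1 and Dtx1, targets of Notch, differed by -0.16 ± 0.21 and -0.38 ± 0.23 and did not pass. Hes5, another target, rose by 0.56 ± 0.13 on a dim signal of 179 to 250.4. Over the 24 genes of the list 4 rose and 7 fell, and 7 rose and 3 fell with spike-in centring.

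Several feedback inhibitors of the Wnt pathway rose. Of 28 genes of Wnt feedback and targets 9 rose and 3 fell (median 0.23). Nkd1, an inhibitor that binds Dishevelled, read 263, 250.2, 328, 262 and 230.2 against 348, 754 and 992, and 164 to 183 in controls. It rose 2.56-fold without overlap (limma adjusted p = 0.000398). Tnfrsf19 (TROY), a Wnt target of the tumour necrosis factor receptor family, rose 2.21-fold. Wif1 and Apcdd1, secreted and membrane-bound inhibitors of Wnt ligands, were chosen after their values were seen. Wif1 was at the floor in 4 mice before transformation and in all controls, read 1473 in before mouse 3, and read 103, 1095 and 3520 in lymphomas. Apcdd1 read 2061 and 2325 in before mice 1 and 2 but 129, 53.5 and 150.1 in mice 3 to 5, and 1014, 2731 and 4804 in lymphomas. The limma adjusted p was 0.0149 for Wif1 and 0.0109 for Apcdd1. In the beta-catenin and destruction complex list, 2 of 34 genes (5.88%) rose and 5 (14.7%) fell, below the 16.0% and 18.3% of all genes. With spike-in centring 15 rose and 1 fell. Ctnnbip1, an inhibitor of the binding of beta-catenin to TCF factors, rose by 0.79 ± 0.11, and Ctnna1, which links beta-catenin to actin, fell by 0.93, both without overlap. The call of Ctnna1 was lost with spike-in centring and within mice 1 and 2.

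Receptors and immune genes fell more often than they rose, as deposited. Cytokine receptors and SOCS proteins had 1 of 44 higher and 13 lower, chemokine receptors and adhesion molecules 2 of 29 higher and 11 lower, costimulatory and inhibitory receptors 1 of 30 and 9, and interferon response genes 2 of 35 and 13. With spike-in centring these counts became 14 and 2, 7 and 7, 7 and 4, and 7 and 5. Ifngr1, the ligand-binding chain of the interferon gamma receptor, read 896, 1100, 903, 921 and 921 against 267, 352 and 736, and Igtp, a GTPase induced by interferon gamma, read 2303, 1766, 1606, 1768 and 1932 against 168, 299 and 859. Both fell without overlap, Ifngr1 by 1.30 on the log2 scale, while Igtp fell by 2.60, with limma adjusted p of 0.000368 and 5.59e-05. Slamf1, a homophilic receptor of lymphocytes, fell by 2.92, Cd96 by 2.37 and Cd28, the costimulatory receptor, by 1.37. Il9r, the receptor of interleukin 9, was the cytokine receptor that rose: it was at the floor in 4 mice before transformation and read 125, 248 and 349 in lymphomas, at least 4.1-fold higher.

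MHC class I and antigen processing varied among the lymphomas. Of 15 genes tested 3 rose and 1 fell (median -0.17). List medians relative to the mean before transformation were -1.05 in lymphomas 1 and 6 and 0.64 in lymphoma 8, while single mice before transformation lay between -0.10 and 0.28. Tap1, which carries peptides to class I molecules, read 79.5, 309.5 and 1008 as lowest, median and highest lymphoma and 288 to 821 before transformation. It did not pass, at -0.80 ± 0.52 (limma adjusted p = 0.258), and neither did H2-K1, a class I heavy chain, at -0.41 ± 0.37. Tap2, the partner of Tap1 in transport, fell by 1.09 without overlap, a call lost with spike-in centring and within mice 3 and up.

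Lists of signalling and chromatin genes leaned lower as deposited and higher with spike-in centring. PI3K, Akt and mTOR genes had 3 of 25 higher and 11 lower (10 and 4 with spike-in centring), immediate-early genes 4 of 27 and 8 (12 and 4), chromatin regulators 2 of 37 and 11 (15 and 4), and T-cell leukaemia genes 4 of 38 and 11 (14 and 5). Pik3r5 and Pik3cg, subunits of the PI3-kinase that G proteins activate, fell by 1.53 and 1.16, both without overlap. Irs2, an adaptor of insulin and cytokine receptors, read 109.5, 70.7, 79.5, 73.2 and 71.8 against 203, 293 and 409 and rose 3.57-fold (limma adjusted p = 5.63e-06). Nfkbia, the inhibitor of NF-kappa-B, fell by 1.13, and Btg1, an antiproliferative gene, by 1.33, both without overlap. Chd7, a chromatin remodeller, rose by 1.52 ± 0.41, and again before mouse 3, at 307, lay within the lymphoma range of 141 to 498 while the other 4 read 53.5 to 96.9.

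**Figure D3:**
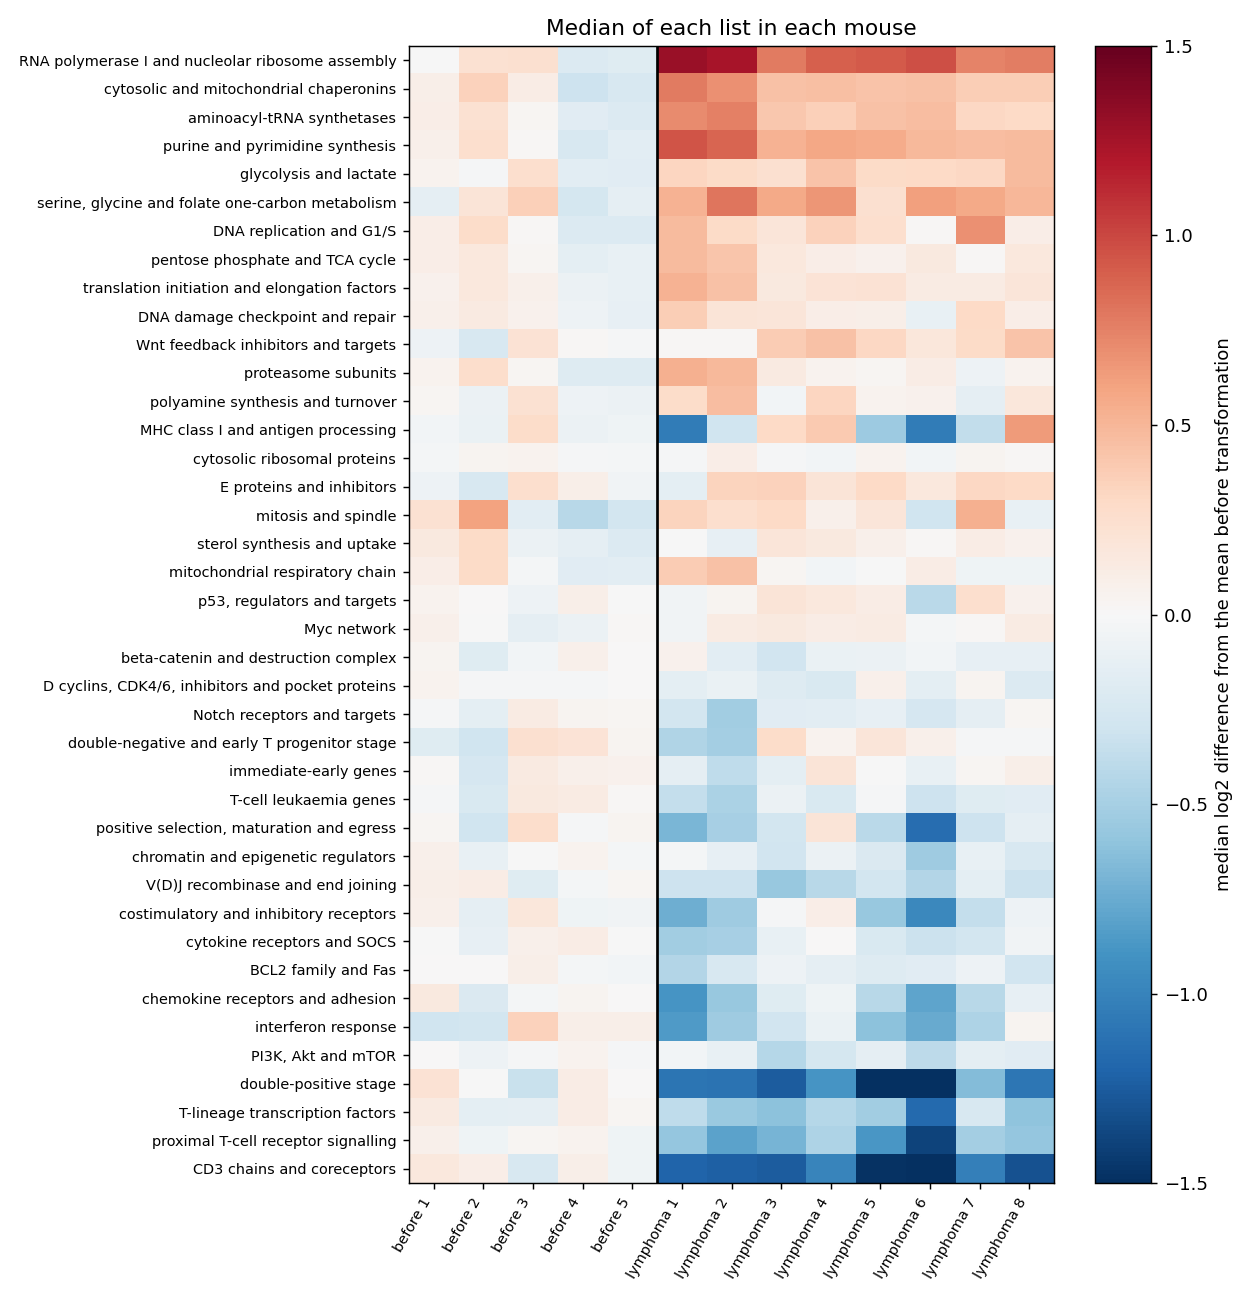
Median log2 signal of each gene list in each of the 13 mice relative to the mean of the 5 mice before transformation (colour scale from -1.5 to 1.5). Nucleolar genes are high and CD3 and double-positive genes low in all 8 lymphomas, at -1.52 to -0.99 for CD3 chains, while MHC class I runs from -1.05 to 0.64; as 1 constant separates spike-in centring from the values shown, pale blue lists such as BCL2, Notch and interferon turn under it.

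The mice could be placed on the line from one group to the other by genes that changed by at least 1 on the log2 scale when that mouse was left out of the fit, with 0 at the mean before transformation and 1 at the mean of lymphomas. Before mice 1, 4 and 5 lay at -0.01, -0.07 and -0.03, mouse 2 at 0.14 and mouse 3 at 0.19. Before mouse 3 lay at 0.29 over the genes that were higher in lymphoma. Lymphomas lay between 0.69, in lymphoma 7, and 1.19, in lymphoma 6. No mouse of either group thus came to the middle of the line.

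Markers of some other cell types moved with the comparison. The material was total thymocytes or tumour masses, so its kind may differ between the groups. The part of that difference in the marker levels given here and below was not tested. Of 24 markers of macrophages and monocytes 13 rose and 1 fell (median 0.85), and the list median was highest in lymphoma 8. Their summed signal was 8207 to 12950 in controls, 13130 to 18930 before transformation and 20520 to 59260 in lymphomas. Without Ctsb, the brightest member, controls at 6306 to 10190 and mice before transformation at 3805 to 10450 overlapped. Lymphomas, at 12950 to 49020, still lay above both. C1qa, a subunit of complement C1q, read 471, 67.8, 211, 104 and 206 against 699, 1004 and 3106 and rose 6.67-fold. Lyz2, a lysozyme whose probes may also bind that of Lyz1, rose 6.98-fold, while Csf1r, the receptor that defines the lineage, differed by -0.54 ± 0.22 and did not pass. Within mice 1 and 2 alone 4 macrophage markers rose and 2 fell. In lymphoma 3, the only lymphoma with male signals alone, the list median was 1.27. None of the macrophage markers was mostly at the floor in lymphomas.

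B-cell markers overlapped as a sum, at 4858 to 17700 before transformation and 5068 to 36910 in lymphomas. Of 18 tested 3 (16.7%) rose, near the 16.0% of all genes, and none fell. Ighm, the immunoglobulin mu chain, and Igll1, a surrogate light chain, were among the 3. Of 6 other probe sets for Ighm 2 shared the call. In the probe set used controls read 3542 to 4948, about as the lymphoma median of 4574. Cd79a and Ms4a1, which define B cells, differed by 1.22 ± 0.75 and 1.11 ± 0.77 and did not pass, with lymphoma 3 highest at 1641 and 1736 and before mouse 3 at 603 and 728. Pou2af1, above, is also known from B cells: before mouse 3 had the highest value of its group in Pou2af1, Ighm, Cd79a and Ms4a1, but lymphoma 6 had 66.4 for Cd79a and Ms4a1 at the floor. The part of B cells in the Pou2af1 result was not tested.

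Thymic epithelium markers were lower. Of 17 tested 6 fell and 2 rose (median -0.43), and the summed signal was 10500 to 15430 before transformation and 4271 to 7247 in lymphomas. Without Ctsl, a cathepsin and the brightest member, the sums overlapped, at 3671 to 6514 and 3283 to 4487. Prss16, the thymus-specific protease of cortical epithelium, read 674, 291, 398, 487 and 260.5 against 53.5, 64.9 and 79.5 and fell by 2.60 (limma adjusted p = 1.12e-06). Ccl25, the thymus-expressed chemokine, was at the floor in 6 of 8 lymphomas. Fibroblast and matrix markers rose in 11 of 24 and fell in 2 (median 0.61), with summed signals of 12970 to 18580 before transformation and 12800 to 25380 in lymphomas. Thy1, also a T-cell marker, was the brightest member and fell; without it the sums were 3783 to 5694 and 6953 to 18360, without overlap. Within mice 1 and 2 alone 1 of these markers rose and 1 fell. Bgn, a matrix proteoglycan, was at least 8.74-fold higher, at 128, 578 and 2132 in lymphomas. Platelet marker sums were 1592 to 2608 in lymphomas and 2649 to 3298 before transformation, but F13a1 made this fall: without it the sums were 1516 to 2318 and 1109 to 1441, higher in every lymphoma. Erythroid sums overlapped, at 2599 to 4142 and 4004 to 5069. The part of these cells in the rises and falls of other genes was not tested.

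**Figure D4:**
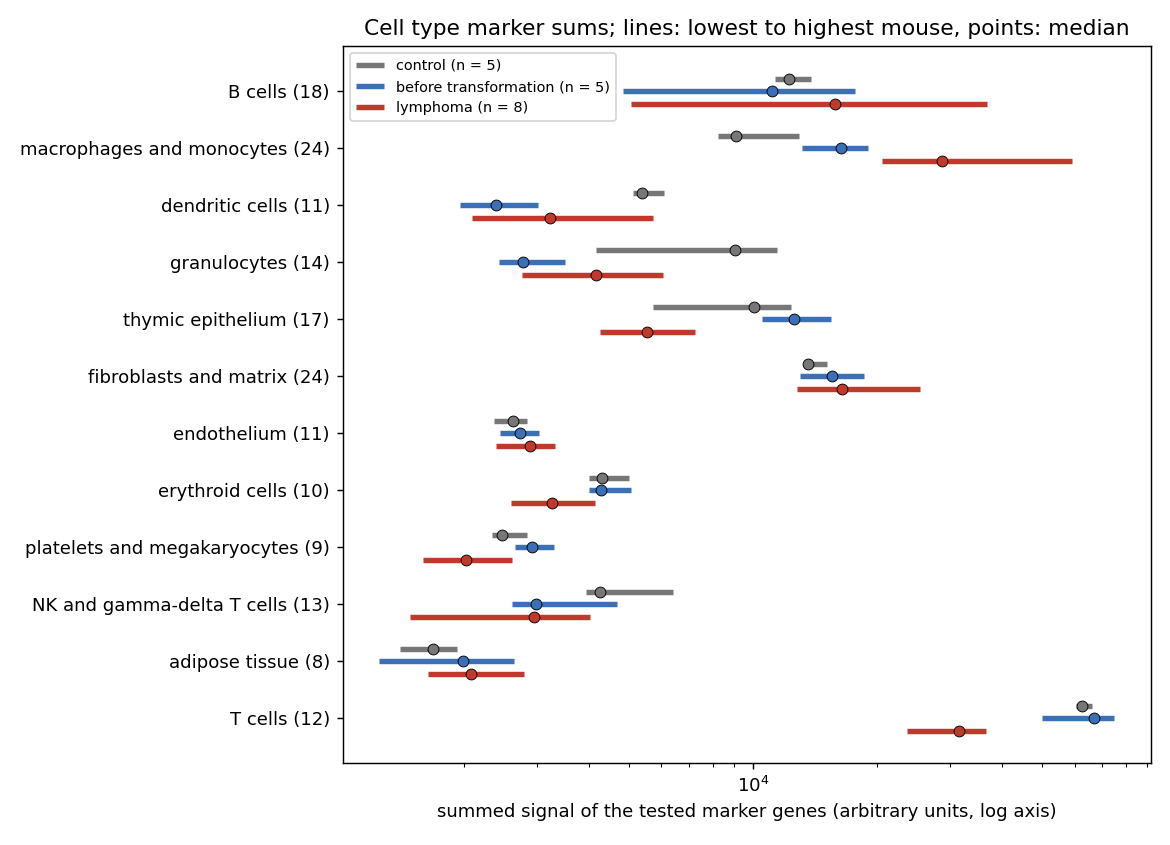
Summed array signal (log axis) of the measured markers of 12 cell types in controls, mice before transformation and lymphomas; lines give the range over mice and points the median. T-cell sums fall from 50000 to 74660 to 23630 to 36730 and thymic epithelium sums from 10500 to 15430 to 4271 to 7247, while macrophage sums rise from 13130 to 18930 to 20520 to 59260; without their brightest members, the platelet sums turn from lower to higher, the fibroblast sums no longer overlap and the thymic epithelium sums do.

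Because Myc rose in every lymphoma, its neighbours and its chromosome were described; this was chosen after the values were seen. Of the 16 tested genes nearest to Myc in the RefSeq table, 8 on each side, 3 rose and 1 fell, with differences from -0.87 to 1.14. Sqle, squalene epoxidase, rose by 1.14 ± 0.31 but differed by -0.13 within mice 1 and 2, and Pvt1, the noncoding gene next to Myc, differed by 0.15 (limma adjusted p = 0.808). Among genes with a mean log2 signal of at least 8, 351 lay on the chromosome of Myc and 7814 on the other 18 autosomes. The median of the 351, relative to the mean before transformation, was 0.21 in lymphoma 5 and 0.20 in lymphoma 7. The other autosomes reached at most 0.01 in these mice. Lymphomas 6 and 8, at 0.00 and 0.05, were also above every other autosome, by at most 0.05, as were before mouse 4 (0.01) and controls 4 and 5 (0.09 and 0.04), by at most 0.03. In lymphomas 1 to 4 the median was between -0.09 and 0.03, inside the range of the others, and in single mice before transformation between -0.07 and 0.06. Myc itself was not highest in lymphomas 5 and 7, at 1612 and 1946, and lymphoma 1 held the highest value.

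**Figure D5:**
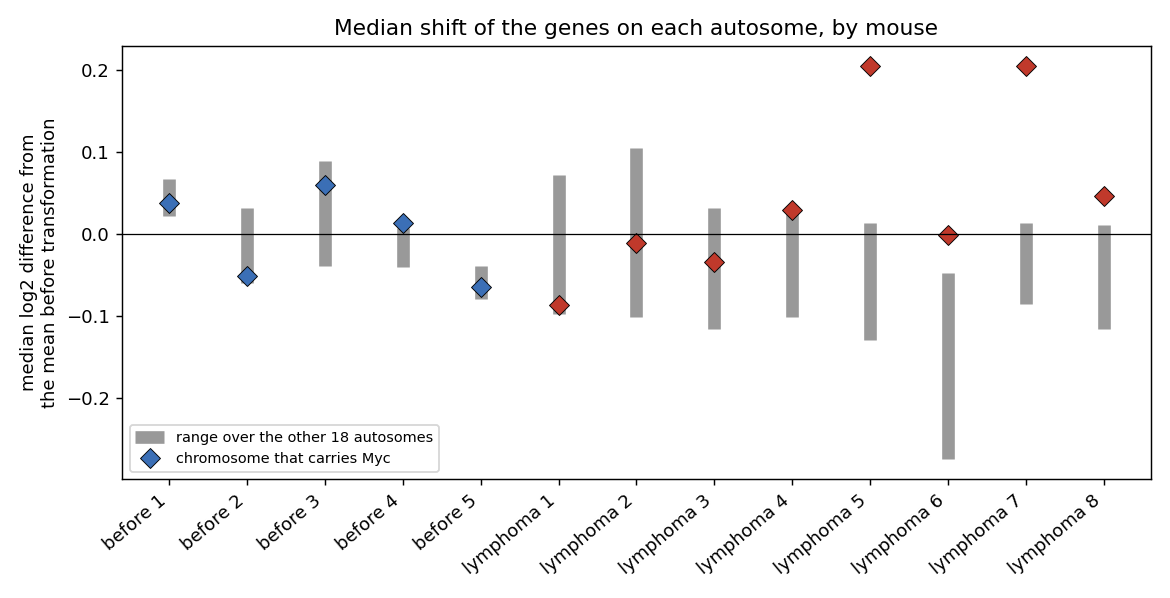
Median log2 difference from the mean before transformation of genes on the chromosome of Myc (diamond) and the range of the medians of the other 18 autosomes (grey bar), for each of the 13 mice. In lymphomas 5 and 7 the diamond, at 0.21 and 0.20, lies above the grey bar by more than the length of the bar, and in the other lymphomas it lies between -0.09 and 0.05.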

How the data were processed

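RNA of thymocytes or tumour masses of 18 mice was hybridized to Affymetrix mouse 430 arrays, 1 array per mouse, and 13 arrays were compared here. The authors analysed the arrays with dChip (design text), and the deposited values are intensity per probe set on a linear scale. Its version, model and way of scaling were not given in the sources used here, no detection calls were used, and the number of arrays limits the precision. Of 45101 probe sets 64 array controls were left out, 34945 had 1 gene symbol, 932 had several and 9160 none, and only the first kind was used. Blanks (9775 of 811818 values) and low values were set to the table's 20th percentile of 53.5, and log2 was taken. Each of 18193 genes was read from its probe set of highest mean signal (18 arrays), and 14019 with a signal above 108.6 on at least 5 arrays were tested. Lymphomas and mice before transformation were fitted without covariates with limma 3.58.1 in R 4.3.3, with an intensity trend and p adjusted by Benjamini and Hochberg's method over the 14019, and every adjusted p of a gene is limma's. Where at least 3 of 5 mice before transformation or 4 of 8 lymphomas of the dimmer group were at the floor, a fold is given as "at least".

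Named genes are the 20 largest rises and falls without overlap, up to 3 passing members of each pathway list and 2 of each marker list with the smallest adjusted p, 1 member that went the other way, and key genes of thymocytes and lymphoma; members of a list may also be given as examples of it. The members and lists were chosen with earlier results of these data known. Lists share members: of 1149 genes tested in them, 99 stood in more than 1 list. On simulated data the same steps recovered 25.4% of 67 genes changed by 0.5, 86.6% of 67 changed by 1 and 98.5% of 66 changed by 2 on the log2 scale. Other floors, filters, scalings, probe-set rules, blocks, a sex term and each mouse left out were tried as alternatives; blanks left missing and marker sums without the brightest member were added after the data were seen. Promoters are RefSeq's, of GRCm38.p6.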

Additional observations from a re-analysis of the deposited data

Results flagged for a closer look

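Single mice that stood apart from the rest of their group were sought among 199 named genes in both groups, 398 gene and group pairs, by Dixon's test at 95%. It marked 38, where chance marks about 1 in 20 groups of values not set to the floor. That rate does not hold for floored values: in Hunk, Ryk and Il9r the other mice of the group all stood exactly at the floor. Values are log2 signals. No cause was tested.

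Before mouse 3 held 13 of the 38. It was above the other 4 in Pou2af1 (9.08), Srm (9.48), Vars (9.8), Gars (10.45), Nop2 (8.86), Lmo2 (8.12), Bst2 (7.39), Hunk (7.16), Prtn3 (6.24) and Ryk (5.86), all of which were higher in lymphomas. It was below them in Dntt (12.65), Cd8b1 (12.71) and Btg2 (11.74), all of which were lower in lymphomas. In the same group mouse 1 was high in Ctnna1 (10.17), Bgn (6.97) and Irs2 (6.77) and low in Klrc1 (6.76), and mouse 2 was high in Ifngr1 (10.1) and Il9r (6.03).

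Lymphoma 6 was below the other lymphomas in Eif4g2 (12.08), Cct8 (11.44), Mdm2 (9.76), Mdm4 (8.88) and Cenph (7.6) and above them in Gp6 (9.27), a platelet collagen receptor. Lymphoma 3 was lowest in Thy1 (11.61), Cd8a (10.21), Rag1 (9.37) and Xist (6.18), and highest in Vars (10.86). Lymphoma 7 was highest in Arpp21 (8.83) and Evi2a (8.17) and lowest in Pgam1 (10.64) and Psmd7 (9.08). Lymphoma 1 was highest in Ptger3 (7.78) and lowest in Sqle (8.09), lymphoma 5 lowest in Dhcr7 (7.97), and lymphoma 8 highest in Cd14 (8.38).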

How the results depend on the processing

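Of 199 named genes 194 passed, and 85 passed under all 31 alternatives. These include the fit with a sex term, which lowers the 85: Cd4 and Arl2bp, for example, lost their call in that fit alone. The call count moved by over 1.5 times with spike-in centring (7402, with 6853 higher and 549 lower), with array weights for higher genes (3367), within mice 1 and 2 (2572, with 1397 higher and 1175 lower; the last 3 counts rest on 4 mice) and with a sex term without lymphoma 4 (570, with 221 higher and 349 lower); 536 of these 570 were among the main calls. Leaving out 1 mouse gave 3753 to 5184 calls, 1731 to 2420 higher and 1977 to 2764 lower. Without before mouse 3 or without lymphoma 4, 44 nucleolar genes rose and 17 double-positive and 9 CD3 and coreceptor genes fell, as in the full comparison. With the mouse number as a replicate block 4956 genes passed, 2403 higher and 2553 lower, and 4076 were shared. Deviations of same-numbered mice correlated at 0.17, 0.408, 0.29, 0.149 and 0.09, all positive, but 1 under the 0.1 that each had to exceed for the numbers to count as pairs; of the 5 before mice only mouse 2 correlated best with the lymphoma of its own number. With mice 1 and 2 against higher numbers as the block 6438 genes passed. Differences turned for Ctnnb1 (0.174 with quantile normalization, 0.023 with median centring, 0.464 with spike-in centring, 0.162 as a mean over probe sets, 0.170 within mice 1 and 2, and -0.134 to 0.002 when 1 mouse was left out, the highest without lymphoma 6), Fen1 (0.143 with spike-in centring, 0.028 as a mean over probe sets), Sdhd (0.001 and 0.128, likewise), and with spike-in centring Kif22 (0.059), Mmp8 (0.135), Oaz1 (0.236), Rps10 (0.311) and Ubtf (0.195). They turned for Id2 (-0.150 as a mean over probe sets, -0.123 within mice 3 and up, and -0.095 to 0.278 when 1 mouse was left out, -0.095 without before mouse 2 and -0.094 without lymphoma 8), within mice 1 and 2 for Ccnd1 (-0.064), Mxd4 (0.206) and Sqle (-0.125), for Lef1 within mice 3 and up (-0.010), and with the sex term for Lef1 (-0.036), Eif2s3y (0.000) and Xist (-0.315). The cause was not tested. A gene at the floor has no order there, which limits what the dim genes show.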

Other observations

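Other marker lists gave few calls. Of 11 dendritic-cell markers 3 rose and none fell, among them Ccl22, a chemokine that draws regulatory T cells, which read 207, 151, 221, 239.9 and 181 before transformation and 134, 546 and 1084 as lowest, median and highest lymphoma. The groups overlapped, and the rise was 1.34 ± 0.38 (limma adjusted p = 0.0137). Of 14 granulocyte markers 5 rose and 1 fell. Chil3, a chitinase-like protein of myeloid cells, rose 3.05-fold to the level of controls, which read 131 to 428. Of 11 endothelial markers 2 (18.2%) rose and none fell, where 16.0% of all genes rose. Prox1, a homeobox gene of lymphatic endothelium, rose 2.72-fold without overlap. Of 13 markers of NK and gamma-delta T cells 2 rose and 1 fell, of 10 erythroid markers 2 rose and 1 fell, of 9 platelet markers 3 rose and 1 fell, and of 8 adipose markers 1 rose and 1 fell.

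Secreted proteins stood among the largest rises, which were picked among genes without overlap. Cxcl13, the chemokine of B-cell follicles, read 70.1, 71.2, 126, 113 and 85.7 before transformation and 291, 763 and 2807 in lymphomas. Every lymphoma lay above every mouse before transformation, and the rise was 9.18-fold (limma adjusted p = 5.22e-05). Saa3, an acute-phase protein that macrophages make, read 74.7, 53.5, 146, 78.5 and 78.7 against 234, 891 and 2734 and rose 10.5-fold, also without overlap. Macrophage markers were higher in the same lymphomas, as given above, and their part in these rises was not tested.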
